A study of Mus musculus with 6 samples.

Results

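The genes described here encode glutamate receptors and the proteins that hold them at the postsynaptic density, the protein layer under the membrane of an excitatory synapse. They were taken by symbol from a list of 46 genes, and all 46 were present among the 14824 genes of the deposited table and among the 13747 genes tested. RNA-seq was performed on whole tissue of the primary somatosensory (S1) cortex from wild-type (WT) C57B6 mice at postnatal day 21. The 3 WS samples came from cortex after daily whisker stimulation and were taken 90 minutes after the last stimulation, and the 3 NS samples had no treatment. In the study's scheme the whiskers of 1 side of the snout were brushed and the barrel cortex that received no stimulation served as the control, but which NS and WS samples share a mouse is not stated for the RNA-seq. The tissue held neurons, astrocytes, endothelial cells, oligodendrocytes, pericytes and microglia, per the labels, so a change in the number of cells of a type and a change in RNA per cell cannot be told apart. RNA was accepted for sequencing with an integrity number (RIN) above 2.

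Glutamate released in the cortex opens AMPA, NMDA and kainate receptors, which are tetrameric ion channels, and also acts on metabotropic receptors, which signal through G proteins. Auxiliary subunits (TARPs, cornichons and Neto proteins) set the trafficking and gating of AMPA and kainate receptors. MAGUK scaffolds such as PSD-95 bind receptors at the membrane and connect through SAPAP proteins to Shank and Homer, while CaMKII is the abundant kinase of this layer and neuroligins are adhesion proteins that span the cleft. In the sensory cortex the NMDA receptor is known to exchange GluN2B for GluN2A subunits during postnatal maturation, and sensory experience is known to influence that exchange.

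The ionotropic subunits share a stretch of amino acids in the third membrane segment, which lines the ion channel, and the coding sequences of 15 of the 16 ionotropic members encode this stretch exactly, with codons that differ between genes. The bases that encode it are shown with 24 bases on each side for 5 subunits to which the results below refer, in order to compare the families and their base composition. The windows were read from GENCODE M21 transcripts on GRCm38, each lies within 1 coding exon, and capitals mark G and C.
Gria2: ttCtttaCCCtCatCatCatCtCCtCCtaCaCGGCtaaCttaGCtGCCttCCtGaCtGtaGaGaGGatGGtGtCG
Grin1: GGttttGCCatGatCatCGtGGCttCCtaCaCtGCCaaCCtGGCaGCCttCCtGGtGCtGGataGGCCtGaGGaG
Grin2c: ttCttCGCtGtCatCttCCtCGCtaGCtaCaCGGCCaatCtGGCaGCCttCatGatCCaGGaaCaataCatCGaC
Grik2: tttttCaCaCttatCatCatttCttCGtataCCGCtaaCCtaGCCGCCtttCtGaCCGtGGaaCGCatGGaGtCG
Grik5: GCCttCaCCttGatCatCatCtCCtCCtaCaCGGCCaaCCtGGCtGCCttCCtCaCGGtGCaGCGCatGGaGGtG
The Gria2 window lies at chr3:80702545-80702619 on the minus strand, that of Grin1 at chr2:25297175-25297249 on the minus strand, and that of Grin2c at chr11:115253725-115253799 on the minus strand. The windows of Grik2 (chr10:49240666-49240740) and Grik5 (chr7:25015895-25015969) lie on the minus strand as well. Gria2 and Grik2 had 57 of 75 bases in common (76.0%), and the kainate subunits Grik2 and Grik5 had 54 (72.0%). Gria2 and Grin1 had 48 (64.0%) and Gria2 and Grin2c had 42 (56.0%). The GC content of the window ranged from 46.7% in Grik2 to 60.0% in Grik5, although both encode kainate receptor subunits.

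The libraries held between 15660395 and 17276168 counts over the listed genes. The members took 1.39% of the NS total in CPM, the read count scaled to the TMM-adjusted library size, and a single member had between 153 and 83981 counts in a library. Slc17a7, the vesicular glutamate transporter of cortical excitatory neurons, had 2232 to 2347 CPM in NS and 1912 to 2545 CPM in WS. This 1 gene does not show whether neighbouring tissue was included. Striatal markers, given below, summed to 610 CPM in WS replicate 2 and to 260 to 396 CPM in the other libraries. The biological coefficient of variation in the edgeR fit was 10.1%. The study counts male mice as the replicates of its RNA-seq. The main edgeR fit left the samples unpaired, so its p-values and intervals measure the spread between samples of a group. They do not measure the spread of a difference within a mouse. Of the members, 24 overlap an annotated gene on the same strand and 27 overlap an annotated gene on the other strand, and how such reads were assigned was not given in the sources used here.

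No glutamate receptor or postsynaptic density gene differed between WS and NS at an adjusted p under 0.05 (edgeR quasi-likelihood test, Benjamini-Hochberg adjusted across all tested genes, of which 5 or 0.0364% were called). Grin2c, which encodes the GluN2C subunit of the NMDA receptor, was the member with the largest fitted change and the only one with an unadjusted edgeR p under 0.05 (higher in WS, 1 of 46). Over all genes 0.866% were higher and 0.327% were lower at that unadjusted threshold, and no member was lower. The fitted log2 fold changes of the members ran from -0.15 to 0.26, with 25 above 0 and 21 below it. Their median was 0.0029, against 0.0074 over all tested genes, and their median absolute log2 fold change was 0.040, against 0.069. The median SE was 0.096 for the members and 0.111 over all tested genes, so the absolute values were not compared at equal precision. The DESeq2 fit likewise called no member at an adjusted p under 0.05, with 1 member at an unadjusted p under 0.05.

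The intervals were narrow enough to bound the size of any change. All 46 members had a 95% confidence interval of the log2 fold change inside -1 to 1, and for 45 of them it lay inside -0.5 to 0.5. The exception was Grin2b, whose interval reached 0.55. The members whose 3 WS values all lay on 1 side of the 3 NS values were Grin2c, Grm4 and Cacng2 (higher in WS) and Gria3 and Grm8 (lower in WS). Over all tested genes 3.11% were separated in the upward and 3.16% in the downward direction, so these counts of 3 and 2 are to be read against that background.

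**Figure D1:**
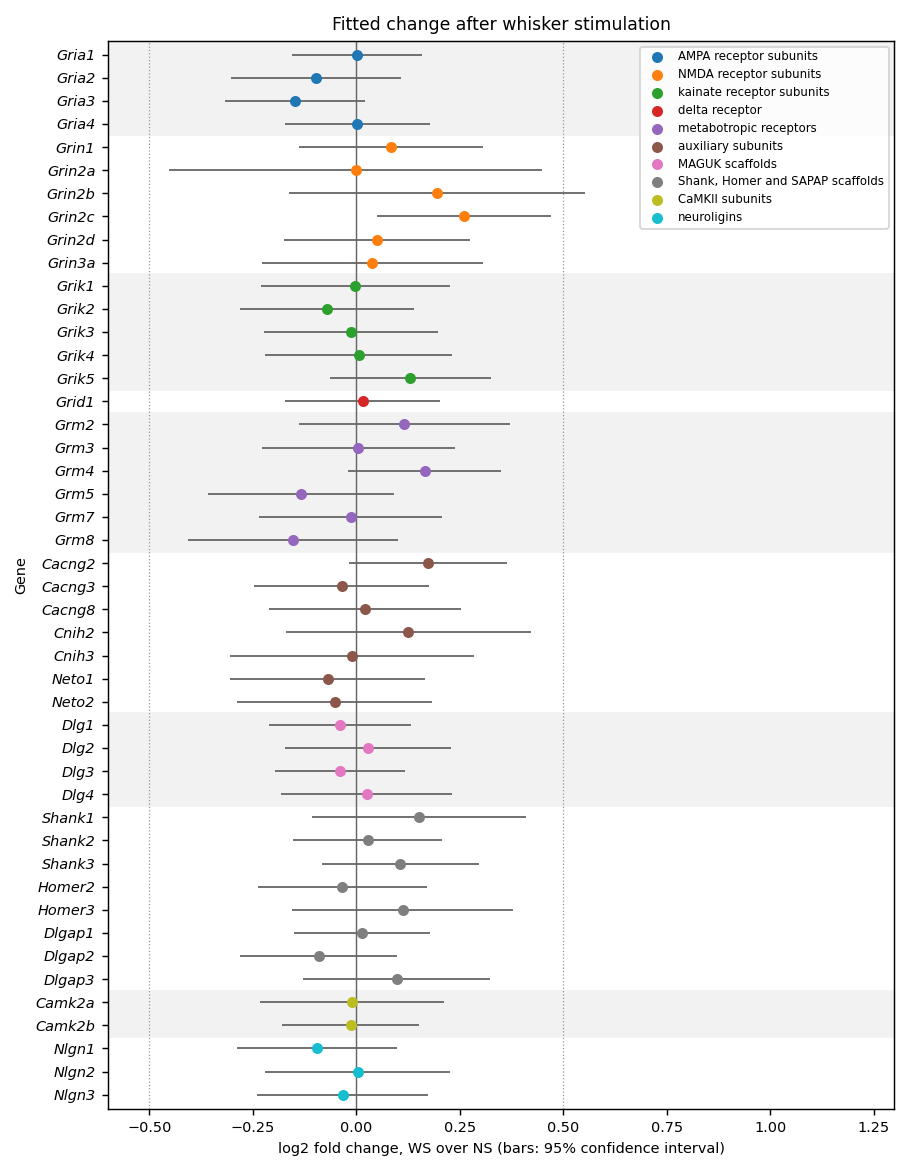
Fitted log2 fold change of WS over NS for each of the 46 genes (horizontal axis), with bars for the 95% confidence interval, colours for the gene class and dotted lines at -0.5 and 0.5. The points lie between -0.15 and 0.26, and Grin2c is the gene whose interval lies wholly above 0.

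Among the NMDA receptor subunits, 5 of 6 had a log2 fold change above 0, with a median of 0.07, and none passed the adjusted test. Grin2c (GRCm38 chr11:115249169-115267243, minus strand) is known from cerebellar granule cells and from astrocytes as well as some cortical neurons. It had 59.0, 55.4 and 57.0 CPM in NS replicates 1 to 3 and 77.2, 60.9 and 66.9 CPM in WS replicates 1 to 3. Every WS library was above every NS library, with a log2 fold change of 0.26 ± 0.10 (SE, 95% confidence interval 0.05 to 0.47, edgeR adjusted p = 1.00). The WS libraries spread more widely than the NS libraries. Without WS replicate 1, NS replicate 2 or NS replicate 3 the unadjusted p of Grin2c was no longer under 0.05.

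Grin1 (chr2:25291181-25319187, minus strand) encodes GluN1, the subunit that every NMDA receptor contains. Its levels were 649.5, 688 and 682 CPM in NS and 830.1, 689 and 620.1 CPM in WS. WS replicate 1 was the highest and WS replicate 3 the lowest of all 6 libraries, so the groups overlapped fully. The log2 fold change was 0.08 ± 0.10 (SE, interval -0.14 to 0.30).

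Grin2a (chr16:9567898-9995560, minus strand) and Grin2b (chr6:135713233-136173511, minus strand) encode the GluN2A and GluN2B subunits of the developmental exchange. Grin2a had 24.2, 33.5 and 23.7 CPM in NS and 22.7, 21.0 and 37.7 CPM in WS. Grin2b had 18.0, 20.2 and 20.3 CPM in NS and 23.7, 16.0 and 27.3 CPM in WS. For both genes WS replicate 3 was the highest of the 6 libraries and WS replicate 2 the lowest. The fitted log2 fold change was -0.0017 (interval -0.45 to 0.45) for Grin2a and 0.19 (interval -0.16 to 0.55) for Grin2b, the widest intervals of the members. For Grin2b the value was 0.03 without WS replicate 3 and 0.38 without WS replicate 2. The remaining subunits, Grin2d and Grin3a, had log2 fold changes of 0.05 and 0.04.

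The Grin2a to Grin2b ratio, formed from the counts of each library, was 1.34, 1.66 and 1.17 in NS and 0.958, 1.31 and 1.38 in WS. The ratio exceeded 1 in every library except WS replicate 1, and the groups overlapped. The ratio is not scaled to gene length, so a value of 1 does not mark equal levels of the 2 genes. Its mean was 1.39 ± 0.25 (SD, n = 3) in NS and 1.22 ± 0.23 (SD, n = 3) in WS. WS minus NS on the log2 scale was -0.19 ± 0.22 (SE), with p = 0.50 in a two-sided exact permutation test, where 0.10 is the smallest p that 3 against 3 samples allow. Leaving out WS replicate 1 or NS replicate 2 brought the difference to -0.03 or -0.06, and leaving out NS replicate 3 brought it to -0.31. Ratios for 3 other pairs gave exact permutation p of 0.30 (Gria1 to Gria2, difference 0.11), 1.0 (Camk2a to Camk2b, difference -5.9e-05) and 0.60 (Dlg4 to Dlg3, difference 0.058). After adjustment over the 4 ratios these exact permutation p became 0.80, 0.80, 1.0 and 0.80 in the order given.

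**Figure D2:**
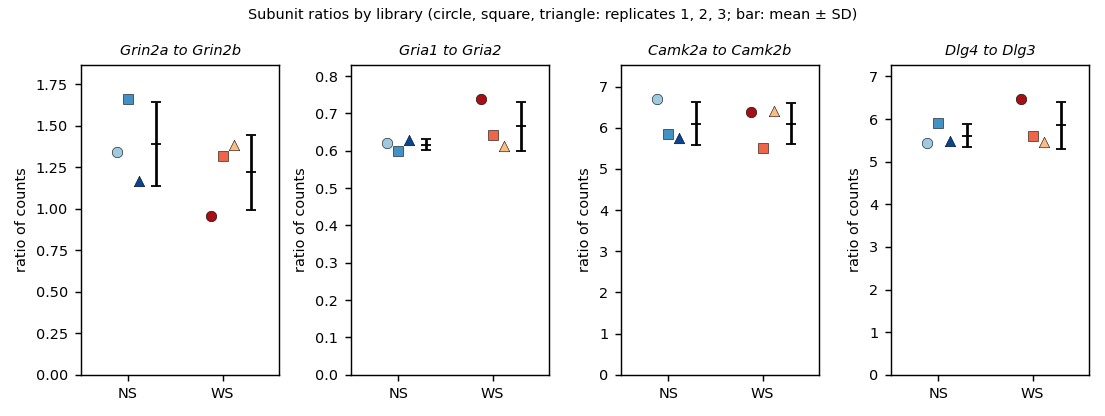
Ratio of counts in each library (vertical axes, each from 0) for Grin2a to Grin2b, Gria1 to Gria2, Camk2a to Camk2b and Dlg4 to Dlg3, in NS and WS, with circles, squares and triangles for replicates 1, 2 and 3 and bars for the mean ± SD (n = 3). The groups overlap in all 4 panels, and the Grin2a to Grin2b ratio has the lowest value, 0.958, in WS replicate 1.

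Of the AMPA receptor subunits, 2 of 4 had a log2 fold change above 0 and none passed the test. The summed level of the 4 genes was 999 to 1059 CPM in NS and 911 to 1073 CPM in WS, a difference in means of -4.8% that became -1.2% without WS replicate 1. The sums of the NMDA receptor genes (6.5%), the kainate receptor genes (5.7%) and the Shank, Homer and SAPAP genes (5.3%) were higher in WS, and without WS replicate 1 these differences were -0.70%, 3.1% and -0.13%. Without that library the sum of the CaMKII genes went from -0.80% to -6.0%, of the neuroligins from -1.1% to -6.7%, of the auxiliary subunits from 3.3% to -2.0% and of all members from 1.2% to -3.0%. Gria3 (chrX:41400854-41678601, plus strand), which encodes GluA3, had 230.4, 223 and 222 CPM in NS and 187, 203 and 219 CPM in WS. All WS libraries were below all NS libraries, with the smallest margin between WS replicate 3 and NS replicate 3, and the log2 fold change was -0.15 ± 0.08 (SE, interval -0.32 to 0.02). Gria2 (chr3:80681450-80802835, minus strand) encodes GluA2, the subunit that limits calcium entry, and had 441, 449 and 415 CPM in NS and 358, 400.3 and 461 CPM in WS. Its WS libraries enclosed the NS range from both sides, with a log2 fold change of -0.10 (interval -0.30 to 0.11). Gria1, which encodes the GluA1 subunit known for activity-dependent insertion, had overlapping groups, with 273, 269 and 261 CPM in NS and 265, 258 and 282 CPM in WS. Its log2 fold change was 0.0018 (interval -0.15 to 0.16), and that of Gria4 was 0.0024.

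Auxiliary subunits of these channels had log2 fold changes of -0.07 to 0.17, with 3 of 7 above 0. Cacng2 (chr15:77991748-78120028, minus strand) encodes stargazin, the TARP that brings AMPA receptors to the synapse. It had 120.0, 129 and 125 CPM in NS and 158, 135 and 129.9 CPM in WS. The WS libraries were above the NS libraries, although WS replicate 3 exceeded NS replicate 2 only narrowly, and the log2 fold change was 0.17 ± 0.09 (SE, interval -0.02 to 0.36). The cornichon genes Cnih2 and Cnih3, whose products slow the closing of AMPA receptors, varied most between the WS libraries among the 7 auxiliary genes. Cnih2 had 332, 309 and 314 CPM in NS and 426, 351 and 264 CPM in WS, and Cnih3 had 89.1, 77.5 and 78.4 CPM in NS and 98.8, 81.0 and 63.4 CPM in WS. In both, WS replicate 1 was the highest and WS replicate 3 the lowest library. Neto1 and Neto2, partners of kainate and NMDA receptors, had log2 fold changes of -0.07 and -0.05.

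The kainate receptor subunits had log2 fold changes of -0.07 to 0.13, with 2 of 5 above 0. Grik5, which encodes the high-affinity GluK5 subunit, had 336, 347 and 329.9 CPM in NS and 409.9, 374 and 325 CPM in WS. WS replicates 1 and 2 were above the NS libraries and WS replicate 3 was below them, and the log2 fold change was 0.13 ± 0.09 (SE, interval -0.06 to 0.33). Grik2, which encodes GluK2, had the lowest value of the class at -0.07. Grid1, the delta receptor of the group, had a log2 fold change of 0.02.

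The 6 metabotropic receptor genes had 3 values above and 3 below 0, and their summed level was 426 CPM in both groups. Grm4 (chr17:27422387-27521403, minus strand), a presynaptic receptor that lowers transmitter release, had 48.1, 50.1 and 48.1 CPM in NS and 58.7, 52.8 and 52.5 CPM in WS. The groups did not overlap, with a log2 fold change of 0.16 ± 0.09 (SE, interval -0.02 to 0.35). Grm8 (chr6:27275119-28135178, minus strand), of the same presynaptic group, had 17.3, 18.5 and 17.5 CPM in NS and 13.6, 17.2 and 17.2 CPM in WS. Here the groups were separated in the other direction, by a narrow margin between the nearest libraries, with a log2 fold change of -0.15 ± 0.12 (SE, interval -0.41 to 0.10). Grm5, the postsynaptic receptor that Homer proteins tether, had 151, 133 and 115 CPM in NS and 110.3, 124 and 129 CPM in WS, with overlapping groups and a log2 fold change of -0.13 (interval -0.36 to 0.09).

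No scaffold gene passed the test. The 4 MAGUK genes had log2 fold changes of -0.04 to 0.03. Dlg4 (chr11:70016942-70047522, plus strand), which encodes PSD-95, had 1029, 1033 and 978 CPM in NS and 1175, 989 and 929 CPM in WS. WS replicate 1 lay above the NS range, WS replicate 3 below it and WS replicate 2 within it, and the log2 fold change was 0.02 (interval -0.18 to 0.23). Of the 8 Shank, Homer and SAPAP genes, 6 were above 0, with a median of 0.06 and a summed level of 2264 to 2520 CPM in NS and 2338 to 2792 CPM in WS. The highest of these was Shank1, which encodes a scaffold of the deeper layer of the density, at 0.15 (interval -0.11 to 0.41), and the lowest was Dlgap2, a SAPAP gene, at -0.09.

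Camk2a (chr18:60925618-60988152, plus strand), which encodes the alpha subunit of CaMKII, was the most abundant member. It had 4823, 4432 and 4271 CPM in NS and 4975, 3984 and 4461 CPM in WS. The highest and the lowest library were both WS, and the log2 fold change was -0.01 (interval -0.23 to 0.21). Camk2b, which encodes the beta subunit, had 719, 757 and 744 CPM in NS and 779, 722 and 698 CPM in WS, with a log2 fold change of -0.01 (interval -0.18 to 0.15). The neuroligin genes had log2 fold changes of -0.10 (Nlgn1), 0.0034 (Nlgn2) and -0.03 (Nlgn3).

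**Figure D3:**
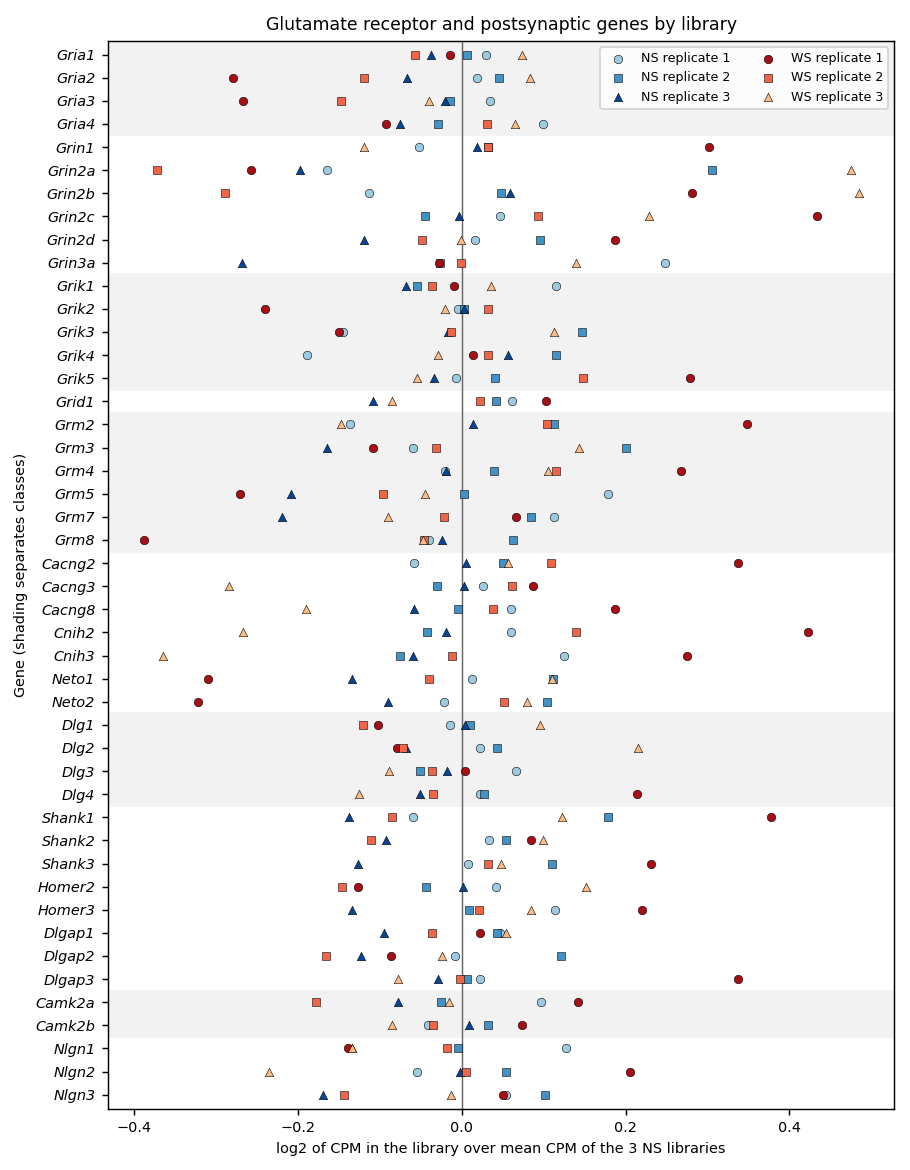
Log2 of the CPM in each library over the mean of the 3 NS libraries (horizontal axis) for each of the 46 genes, with blue symbols for NS and red to orange symbols for WS, and circles, squares and triangles for replicates 1, 2 and 3. WS replicate 1 (dark red circles) holds the highest value for 20 genes and the lowest for 11.

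Levels between genes were compared per kilobase, as NS mean CPM divided by the annotated exon length. Camk2a led with 604 CPM per kb, followed by Cnih2 with 232 and Dlgap3 with 156. Dlg4 had 76.5 CPM per kb and Grin1 had 69.4 CPM per kb. The GluN2 genes were far lower on this scale: Grin2c had 11.3, Grin2d 4.64, Grin2a 1.51 and Grin2b 0.785 CPM per kb, the last being the lowest of the 46. The annotated exons of Grin2a and Grin2b add up to 17.9 and 24.8 kb, and which of these bases were counted is not given in the sources used here. Per kilobase of coding sequence, a comparison added after those low levels were seen, Dlg4 had 440.4 CPM, Grin1 234, Grin2c 15.4, Grin2a 6.18 and Grin2b 4.39. Grin2a and Grin2b then ranked 43 and 45 of the 45 genes with a complete coding sequence. Grin2c was above both on either scale. Both scales divide the same counts, so neither can show whether reads of Grin2a and Grin2b were left uncounted. Whether the order of these genes holds for their RNA in the tissue was not tested.

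**Figure D4:**
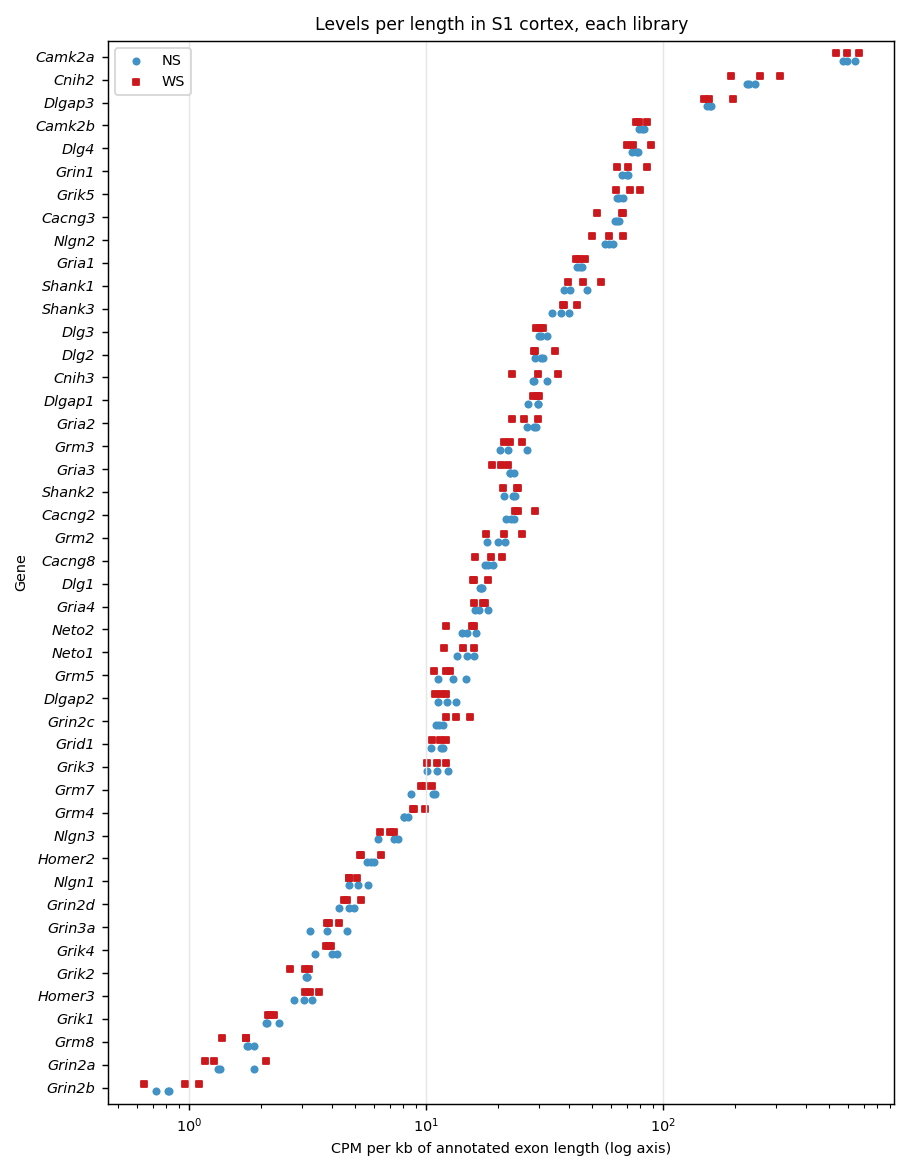
CPM per kb of annotated exon length (log axis) in each library for the 46 genes, ordered by the NS mean, with circles for NS and squares for WS. Camk2a, Cnih2 and Dlgap3 are at the top and Grin2a and Grin2b at the bottom, and the NS and WS points of a gene lie close together next to the range between genes.

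The members varied more between the WS libraries than between the NS libraries. The median SD of log2 CPM was 0.085 in NS and 0.138 in WS (n = 3 libraries each), and it was larger in WS for 31 of 46 members. Over all tested genes the medians were 0.103 and 0.145, with a larger WS value in 64.1%, against 67.4% of the members. WS replicate 1 held the highest or the lowest of the 6 values in 67.4% of the members and in 52.2% of all tested genes. For WS replicate 3 these shares were 45.7% and 46.2%.

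Whether a member was high or low in WS replicate 1 relative to WS replicate 3 went with its base composition. Of the 13 members whose longest transcript had under 45% GC, none was higher in WS replicate 1, and their median log2 difference was -0.28. Gria2 (36.8% GC) with -0.36 and Neto2 (36.5% GC) with -0.40 are examples. Of the 14 members with 55% GC or more, 13 were higher in WS replicate 1, with a median of 0.29. These include Grin1 (59.4% GC) with 0.42, Dlgap3 (63.9% GC) with 0.41 and Grik5 (61.7% GC) with 0.33. Between these limits 11 of 19 were higher, with a median of 0.06.

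**Figure D5:**
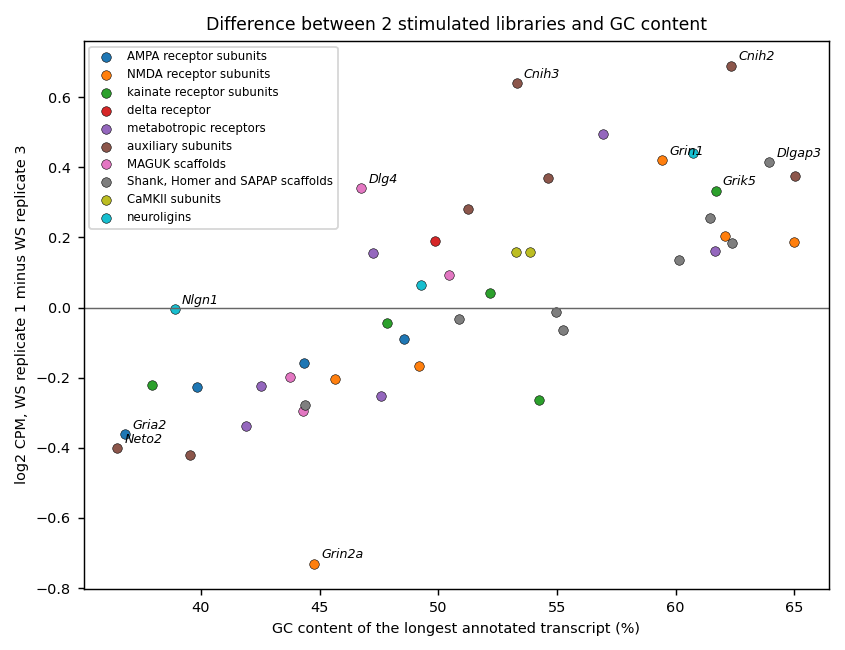
Difference in log2 CPM between WS replicate 1 and WS replicate 3 (vertical axis) against the GC content of the longest annotated transcript in percent (horizontal axis), 1 point per gene for the 46 genes, coloured by class. The points rise from Neto2 and Gria2 at the lower left to Cnih2 and Dlgap3 at the upper right, and Grin2a lies lowest at -0.73.

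Across the 46 members the difference between these libraries and GC content had a Pearson r of 0.74 and a Spearman rho of 0.77. Across 13719 tested genes with a known GC content the values were 0.48 and 0.58, and for the 3 pairs of NS libraries the members' r was between -0.14 and -0.05. For WS replicate 1 minus WS replicate 2 the members' r was 0.70, and for WS replicate 2 minus WS replicate 3 it was 0.36 (0.32 and 0.24 over all genes). The points share the same libraries and genes are not independent, so these are descriptions without a test. Transcript length went the other way, with r = -0.61 between the same difference and log2 length over the members and -0.31 over all genes. This trend was not limited to that pair, with r = -0.72 for WS replicate 2 minus WS replicate 3 and -0.31, -0.08 and 0.28 for the pairs of NS libraries. The difference in means between WS and NS had r = 0.67 with GC content over the members and 0.23 over all genes. The fitted log2 fold change was above 0 for 13 of the 14 members with 55% GC or more and for 2 of the 13 under 45% GC.  When the GC and length trend of each library was removed, an alternative added after these values were seen, the log2 fold change was 0.07 for Grm4, 0.03 for Grik5 and -0.0019 for Grin1. That of Grin2c was 0.16 and its unadjusted edgeR p was no longer under 0.05, while Gria3 was then lower in WS at an unadjusted p under 0.05. The same removal together with a block for the replicate number brought Grin2c back under that unadjusted threshold, again at a log2 fold change of 0.16, and no member passed the adjusted test in either.

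A list of 63 other postsynaptic genes (further receptors, auxiliary proteins, adhesion molecules and scaffolds outside the 46) was measured beside the members. None passed the adjusted test, 24 had a log2 fold change above 0 and 39 below it, and the median was -0.01. Over all tested genes 7289 lay above 0 and 6458 below it. After GC and length removal with the replicate block, 10 of the 63 genes were lower at an unadjusted p under 0.05. Under the same setting 1 of the 46 members and 313 of the 13719 tested genes with a known GC content were lower. Lrrtm4, a leucine-rich repeat adhesion protein of excitatory synapses, was the only gene of the list with an unadjusted edgeR p under 0.05 in the fit of all 6 libraries without these corrections, and without NS replicate 1 no gene of the list was lower at that threshold. It had 50.7, 47.1 and 43.0 CPM in NS and 41.1, 39.3 and 38.5 CPM in WS, with a log2 fold change of -0.24 ± 0.09 (SE, interval -0.45 to -0.04). The groups did not overlap for Lrrtm4, C1ql3 and Homer1 (lower in WS) and for Grip2 (higher in WS), genes named after their values were seen, against the shares of 3.16% and 3.11% over all tested genes. Homer1, whose short form is an activity-regulated transcript, had 174, 177 and 174 CPM in NS and 145, 155 and 172 CPM in WS, with a log2 fold change of -0.15 (interval -0.33 to 0.02), and its isoforms were not separated.

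Markers of other cells and regions were measured in the same libraries. All 7 astrocyte markers had a log2 fold change above 0 (median 0.13), with a summed level of 4325 to 4667 CPM in NS and 4394 to 5434 CPM in WS. Of these markers 4 (Slc1a2, Slc1a3, Aqp4 and Gfap) were highest in WS replicate 3, as was the sum, and 3 (Aldoc, Aldh1l1 and Sox9) were highest in WS replicate 1, as was Grin2c. The part of astrocyte RNA in the Grin2c value was not tested. The 6 oligodendrocyte markers were also all above 0 (median 0.19, 7949 to 11470 CPM in NS and 9436 to 12704 CPM in WS), as were 6 of 7 inhibitory neuron markers (median 0.13, 1030 to 1063 CPM in NS and 1092 to 1183 CPM in WS). All 5 endothelial markers were above 0 (median 0.17, 117 to 124 CPM in NS and 134 to 164 CPM in WS). Among them Pecam1, named after its value was seen, had a log2 fold change of 0.87 (edgeR adjusted p = 0.81). The 7 general neuronal markers summed to 6916.5 to 7008 CPM in NS and 6481 to 6915.7 CPM in WS, with a median of -0.04. The 6 microglia markers summed to 401 to 420 CPM in NS and 421 to 434 CPM in WS, and the 3 layer 4 markers to 66.8 to 70.5 CPM in NS and 72.7 to 78.4 CPM in WS. The NS and WS sums did not overlap for the inhibitory, endothelial, microglia and layer 4 lists, and those of the general neuronal list nearly touched. They overlapped for the oligodendrocyte precursor, thalamic, hippocampal, upper-layer and deep-layer lists. Of the markers in those lists 4 of 4, 5 of 5, 3 of 4, 2 of 2 and 1 of 4 were above 0, in that order. The sums were described without a test and without a background share. Of 6 excitatory cortical neuron markers 2 were above 0, with a median of -0.02 and 2705 to 2853 CPM in NS and 2369 to 3066 CPM in WS, highest in WS replicate 1 and lowest in WS replicate 3. The 8 striatal neuron markers were all above 0. They summed to 281, 376 and 396 CPM in NS and 300.01, 609.96 and 259.6 CPM in WS, so WS replicate 2 stood out. None of these lists held a gene with an adjusted p under 0.05, and their part in the values of the receptor and scaffold genes was not tested.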

How the data were processed

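Bulk RNA-seq of 3 NS and 3 WS samples of S1 cortex was analysed. Per the methods, the authors filtered out rRNA and poor-quality reads before alignment with HISAT2, and the submitters' processing notes name mm10. The counting tool and annotation were not given in the sources used here. The deposited table holds, for each gene, the mean over 6 libraries as an estimated count without depth scaling, the SD of those counts, and z-scores of the single libraries. These z-scores and the SD are treated as scores that the authors computed from the counts. A second deposited table and the columns of the authors' own comparison (fold changes and p-values) were not used. The column read as WS replicate 3 is headed NWS after its number, and was assigned by inference, since the third NS library has a column of its own and the authors' WS mean includes this column.

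Counts per library were recovered as mean plus z-score times SD and then rounded. Of the values, 91.0% were whole within 0.1 over the 13418 genes with a rounding uncertainty under 0.1. The planned count test was run on these recovered counts, since the table holds z-scores and not the counts or FPKM the plan assumed. Library pairs differed by more than sampling noise (chi-square per degree of freedom 4.49 to 21.5). Depth was 15660395 to 17276168 counts per library, and precision rises with a gene's count.

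WS was compared with NS in edgeR 4.0.16 under R 4.3.3 (TMM scaling, filterByExpr, quasi-likelihood F test), with p adjusted by Benjamini-Hochberg across the 13747 genes kept. Standard errors and 95% intervals came from that fit with 11.6 degrees of freedom. Ratios were compared with exact permutation tests (SciPy 1.17.1). In simulated counts of 13669 genes for the WS against NS comparison, 42% of genes with a true log2 change of 0.5 were recovered, and 88% of those with a change of 1. The simulation changed many randomly chosen genes and held no GC trend or pairing. Only 5 genes were called in the data, so recovery among the members may be lower than these rates. Gene positions, GC content and lengths came from GENCODE M21 on GRCm38. DESeq2 1.42.0, other scalings and filters, each library left out, a replicate block and removal of GC and length trends were alternatives.

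Replicate numbers come from the labels. Same-numbered NS and WS libraries deviated together from their group means (r = 0.34, 0.23 and 0.12 over tested genes, against -0.26 to 0.04 for other pairs), so the numbers were treated as pairing the samples, and the fit without a block was kept as planned.

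The members and lists were chosen with earlier results of these data known. Values in every library are given for Grin1, Grin2a, Grin2b, Gria1, Gria2, Grm5, Dlg4, Camk2a and Camk2b, for members with groups that did not overlap, for the 5 smallest p and the 5 largest changes. No member had a library beyond 2 times or under 0.5 times the median. Cnih2 and Cnih3 are given outside this rule, after their values were seen. Class sums without WS replicate 1 were also added after the values were seen.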

Additional observations from a re-analysis of the deposited data

How the results depend on the processing

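Under every alternative no member passed the adjusted test, and the median log2 fold change of the members stayed within -0.03 to 0.04. Removing the GC and length trend left 0 members higher and 1 lower by unadjusted p, and with the replicate block 1 and 1. Of the 63 other postsynaptic genes it left 2 lower, and with the block 1 higher and 10 lower. Of the 13719 tested genes with a known GC content 139 were higher and 188 lower, and with the block 270 and 313. With upper-quartile factors 1 member was separated downward (2.98% of all genes). Leaving out 1 library gave 0 to 5 members higher and 0 to 3 lower at an unadjusted p, 3 to 7 separated upward and 2 to 7 downward, and 0 to 2 other postsynaptic genes higher and 0 to 3 lower. Without WS replicate 3 there were 5 members higher and 3 lower, with the smallest p for Cnih2 (edgeR adjusted p = 0.88), while over all genes 319 were higher and 291 lower, against 119 and 45 with every library. Without NS replicate 2, NS replicate 3 or WS replicate 1 none was higher (160, 125 and 315 over all genes), and without WS replicate 2 there were 2 (120 over all genes). Separated members numbered 5 upward and 3 downward without NS replicate 1 (5.75% and 5.58% of all genes). They numbered 4 and 2 without NS replicate 2 (7.81% and 7.75%) and 3 and 7 without NS replicate 3 (7.33% and 7.30%). Without WS replicate 1 there were 3 and 2 (8.83% and 8.46%), and without WS replicate 2 there were 4 and 4 (6.61% and 7.66%). Both directions gave 7 without WS replicate 3 (9.86% upward and 10.4% downward). Of the other postsynaptic genes 3 were lower by unadjusted p without NS replicate 3 (65 over all genes) and 2 without WS replicate 1 (114). Without WS replicate 3, 2 of them were higher and 2 lower (319 and 291). The cause was not tested, beyond the smaller number of samples.

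Genes near 0 changed sign. Gria1 was -1.6e-05 with RLE factors, -0.0010 with DESeq2, and -0.0057 and -0.0059 after GC removal without and with the block. Grin2a was 0.00037 with upper-quartile factors and 0.0023 with a mean of at least 50 counts. Grin1 was -0.0019 and -0.0045 after GC removal without and with the block. With 1 library left out, ranges were -0.0942 to 0.0580 for Camk2a, -0.0591 to 0.0200 for Camk2b, -0.0792 to 0.0945 for Dlg4, -0.0358 to 0.0223 for Gria1, -0.0405 to 0.173 for Grin1 and -0.313 to 0.179 for Grin2a. For the log2 ratios they were -0.0425 to 0.0709 for Camk2a to Camk2b, -0.0182 to 0.105 for Dlg4 to Dlg3, -0.313 to -0.0294 for Grin2a to Grin2b and 0.0262 to 0.163 for Gria1 to Gria2. Of the other named members, Grin2b ranged from 0.0254 to 0.378, Gria2 from -0.197 to -0.0141, Grm5 from -0.228 to -0.0356 and Grm8 from -0.217 to -0.0462. Without WS replicate 1, Grin2c was 0.16, Cacng2 0.08, Grik5 0.05, Grm4 0.11 and Gria3 -0.09.

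In the paired fit with the replicate block, Grin2c had a log2 fold change of 0.25 and the mean paired difference of the log2 Grin2a to Grin2b ratio was -0.19. The block called 0 members, and over all genes it raised the calls by adjusted p from 5 to 11. Without GC removal it gave the same counts by unadjusted p for the members and for the other postsynaptic genes, and changed no other call among the members.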
